A study of Mus musculus with 4 samples.

Results

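The miRNAs described here are those that the array names mmu-miR-1800 to mmu-miR-5999, a range of late catalogue numbers. Scanner rows for mouse miRNAs with such a number were taken, with any arm or version suffix, and miR-1839, miR-1937, miR-3096 and miR-3102 were left out. This gave 206 of the 1023 mouse miRNAs on the array, against 807 lower-numbered miRNAs (let-7 included) and 10 in neither set. RNA came from 4 mouse cell lines with 1 array each. NSC are neural stem cells and OPC are oligodendrocyte precursor cells. The lines of glioma-initiating cells, able to seed a tumour, are NSCL61, made from NSC, and OPCL61, made from OPC. The labels give no genotype, treatment, passage or age for any line, and the alteration that made the glioma-initiating cells is not stated in the sources used here. No line had a replicate array, so no difference between 2 lines could be tested, and errors are SDs over the replicate spots of 1 probe on 1 array.

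A miRNA is cut from a hairpin transcript, loaded into an Argonaute protein and pairs with messenger RNAs mainly through its seed, the bases near its 5′ end. Numbers were given in order of discovery. The low numbers hold most of the conserved and abundant miRNAs, while the late ones came largely from deep sequencing, are often found in rodents only, and include entries that overlap other small RNAs or repeats. For most of them no role in neural stem cells or oligodendrocyte precursors is established.

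The sequences below belong to the members with the highest signals or the clearest differences between lines. First come the array probes, 5′ to 3′, each the brightest probe of its miRNA, with G and C in capitals because the probes' GC content recurs in the results.
miR-3106-5p: tGGCtGCttCtaaatGa
miR-3098-5p: GCtCCtaCtCCtGCt
miR-1940: aaCtGCtCCaCCttCt
miR-2137: CtCCCtGGGGCtC
miR-2145_v16.0: aaCCaGGCCCGaCC
miR-2861: CCGCCCGCC
miR-3077-5p: GGCCtGCCCGC
miR-1894-3p: CtCCCttCaCCCtCt
miR-3095-3p: aaaaGCtCtCtCtCCaGt
These probes ran from 9 to 18 bases. Per the files the miR-3106-5p probe lies at chr8:16168774-16168790, the miR-3098-5p probe at chr6:125145833-125145846, the miR-1940 probe at chr13:96100566-96100580 and the miR-2137 probe at chrX:70237461-70237472 (all mm9).

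RefSeq (GRCm38.p6) held a mature sequence for 156 of the 206 members and for 29 of the 42 that were well above background in at least 1 line. In all 29 the probe was complementary to the 3′ end of the mature RNA, away from the seed. Mature sequences of the members that differed most between lines follow, 5′ to 3′, with the seed (bases 2 to 8) in capitals.
miR-3098-5p: uCCUAACAgcaggaguaggagc
miR-2137: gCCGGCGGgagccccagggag
miR-2861: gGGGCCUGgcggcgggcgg
miR-1894-3p: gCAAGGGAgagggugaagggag
miR-3077-5p: cUGCGGACgggugggcgggcaggcc
miR-3095-3p: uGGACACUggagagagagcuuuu
miR-3082-5p: gACAGAGUgugugugucugugu
miR-1892: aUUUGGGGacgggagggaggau
miR-1895: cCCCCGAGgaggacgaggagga
miR-3099-3p: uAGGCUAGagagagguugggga
miR-3472: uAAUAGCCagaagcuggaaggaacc
No 2 of the seeds printed here are alike. Among all detected members with a RefSeq sequence, miR-2861 shared its seed with miR-3091-3p and miR-3085-3p shared its seed with miR-3064-5p, and neither partner was well above background on any array.

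Several mature sequences lie inside longer genes of GRCm38.p6, by position and without regard to strand. miR-2137 (chrX:72992113-72992133) lies in Zfp185, a zinc finger gene, and miR-1895 (chr3:134240515-134240536) lies in Cxxc4, which encodes an inhibitor of Wnt signalling. miR-1894-3p (chr17:35917938-35917959) lies in Ppp1r10, a regulator of protein phosphatase 1. miR-3095-3p (chr4:58441023-58441045) lies in Lpar1, a receptor for lysophosphatidic acid. miR-1897-3p lies in Sox2ot, the long noncoding RNA that overlaps Sox2, and miR-3072-5p and miR-1906 lie in Mirg and Meg3, noncoding genes of the imprinted Dlk1-Dio3 region. An identical copy of the miR-1906 sequence lies at chrX:88759485-88759506, and its probe maps to both places. Expression of the genes named here was not measured.

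Most late-numbered miRNAs were not well above background in any line. A probe counted as well above background when at least 50% of its spots carried that flag, and a miRNA when any of its probes did. Of the 206 members NSC held 29 (14.1%) and its derivative NSCL61 31 (15.0%), while OPC held 26 (12.6%) and its derivative OPCL61 38 (18.4%). Among lower-numbered miRNAs the shares were, in the same order, 16.6%, 23.4%, 13.3% and 19.95%. In at least 1 line 42 members (20.4%) and 221 lower-numbered miRNAs (27.4%) were detected, and on all 4 arrays 19 members (9.22%) and 80 lower-numbered miRNAs (9.91%). The gap was widest in NSCL61, and OPCL61 was the line with the most members detected. The other 164 members were not well above background on any array, 8 were detected on 1 array, 5 on 2 and 10 on 3.

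By catalogue block, 17 of the 82 members from miR-1800 to miR-1999 were detected in at least 1 line, as were 17 of the 110 from miR-3000 to miR-3199. The other blocks were small, with 4 of 7 from miR-2000 to miR-2999, 3 of 6 from miR-3200 to miR-3999 and the single member above, miR-5097. Both arms of the hairpin were on the array for 68 members' hairpins. Both were detected in 2 of these, miR-1897 and miR-3093, 1 arm in 17 and neither in 49. Among 311 lower-numbered hairpins the counts were 25, 115 and 171. The other arms of the most variable members, miR-3106-3p, miR-3098-3p, miR-3095-5p and miR-3082-3p, had signals between -2.22 and 0.55 units in every line, not well above background.

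Detected members had GC-rich probes. Their median probe GC was 64.3% against 53.3% for members never detected, while among lower-numbered miRNAs the medians were 50% and 47.1%. Of members with probe GC under 50%, 7 of 53 (13.2%) were detected in at least 1 line, and from 50% to under 60%, 5 of 78 (6.41%). From 60% to under 70% it was 17 of 54 (31.5%), and from 70%, 13 of 21 (61.9%). For lower-numbered miRNAs the same classes gave 24.1%, 25.2%, 35.7% and 47.8%. The share was lower for late-numbered than for lower-numbered miRNAs in each class under 70% GC, and higher in the class of 70% and over, which held 21 of them; these differences were not tested. The part of probe chemistry in this pattern was not tested.

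**Figure D1:**
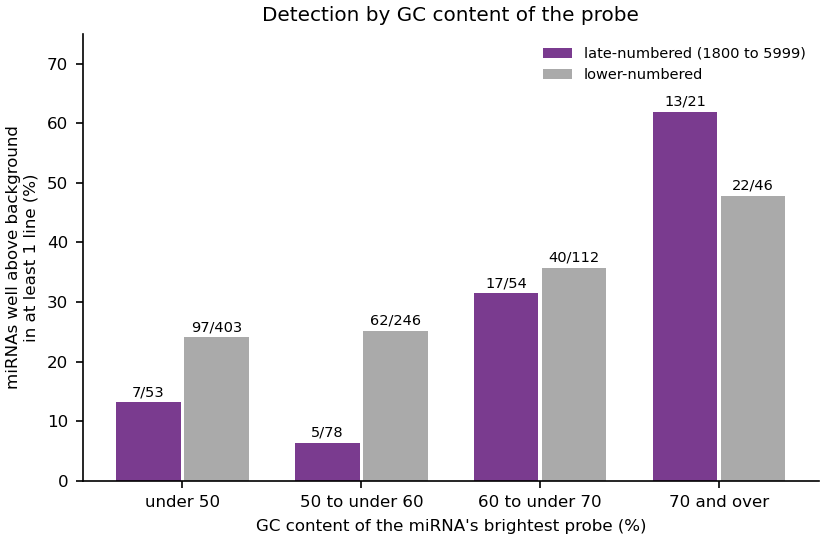
Share of miRNAs well above background in at least 1 line (y axis, %) by GC content of the miRNA's brightest probe (x axis, %), for late-numbered and lower-numbered miRNAs, with detected and total numbers above the bars. Late-numbered miRNAs run from 6.41% at 50% to under 60% GC to 61.9% at 70% and over.

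The mature sequences showed the same lean. Median GC was 63.6% in the 29 detected members with a RefSeq sequence and 52.9% in 127 undetected ones, against 47.8% in 170 detected and 47.6% in 463 undetected lower-numbered miRNAs. The run GGG, searched on the miRNA strand only, was found in 17 of the 29 detected members (58.6%) and in 39 of the 127 undetected ones (30.7%). It was found in 32.4% of detected lower-numbered miRNAs and in 30.6% of all 1679 mature miRNAs of the RefSeq table. A match describes the letters and says nothing about function.

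The brightest member was miR-2145_v16.0, with 4565 ± 150 units in NSC (SD, n = 20 spots), 6892 ± 92.0 in NSCL61 (n = 17), 3588 ± 61.9 in OPC (n = 20) and 13196 ± 301 in OPCL61 (n = 20). It was strong in every line and highest in OPCL61. Its probe is complementary to a stretch of 5S ribosomal RNA, as background knowledge of that RNA, and its 2 mapped positions lie on chromosomes 4 and 14 of mm9. Whether the signal came from a miRNA or from ribosomal RNA was not tested. All detected members together made up 11.8% of the summed signal of detected mouse miRNAs in NSC and 6.13% in NSCL61, and 15.96% in OPC and 23.3% in OPCL61. Of the members' sum, miR-2145_v16.0 alone held 4565 of 9216 units for NSC and 6892 of 15410 for NSCL61. For OPC it held 3588 of 5129 units and for OPCL61 13196 of 22209. Lower-numbered miRNAs made up 42.9% and 58.4% for the NSC lineage (precursor first), and 48.3% and 63.0% for the OPC lineage. The rest of each sum belonged to the 10 miRNAs in neither set.

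Other bright entries also have names that overlap other RNAs. miR-5097, which the file also lists as miR-1274a, an entry with the sequence of a lysine tRNA end, had 488 ± 8.87 units in NSC (n = 18), 3389 ± 33.9 in NSCL61 (n = 17), 64.2 ± 3.92 in OPC (n = 19) and 251 ± 16.6 in OPCL61 (n = 16). It was highest in NSCL61 and was lower in both lines of the OPC lineage than in either line of the NSC lineage. miR-3473, with a sequence found in short interspersed repeats, had 252 ± 7.89 units in NSC (n = 20), 756 ± 17.2 in NSCL61 (n = 20), 197 ± 9.66 in OPC (n = 20) and 694 ± 11.8 in OPCL61 (n = 16). Its unscaled signal was higher in both glioma-initiating lines than in both precursors.

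miR-2861, known in mouse for promoting osteoblast differentiation, had a probe of 9 bases made only of G and C. Its signal was 683 ± 22.3 units in NSC (n = 18), 1220 ± 50.8 in NSCL61 (n = 20), 98.9 ± 4.30 in OPC (n = 19) and 909 ± 33.4 in OPCL61 (n = 17). OPC stood apart as the low line. miR-1939_v16.0 gave 346 ± 9.94 units in NSC (n = 20), 341 ± 12.3 in NSCL61 (n = 20), 193 ± 7.67 in OPC (n = 16) and 187 ± 7.39 in OPCL61 (n = 18). Within each lineage the precursor and the glioma-initiating line had nearly equal unscaled signals. miR-1949, miR-1897-5p, miR-3077-5p and miR-1944_v16.0 completed the 10 members with the highest mean scaled signal, all detected in every line, with 60.2 to 547 units.

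**Figure D2:**
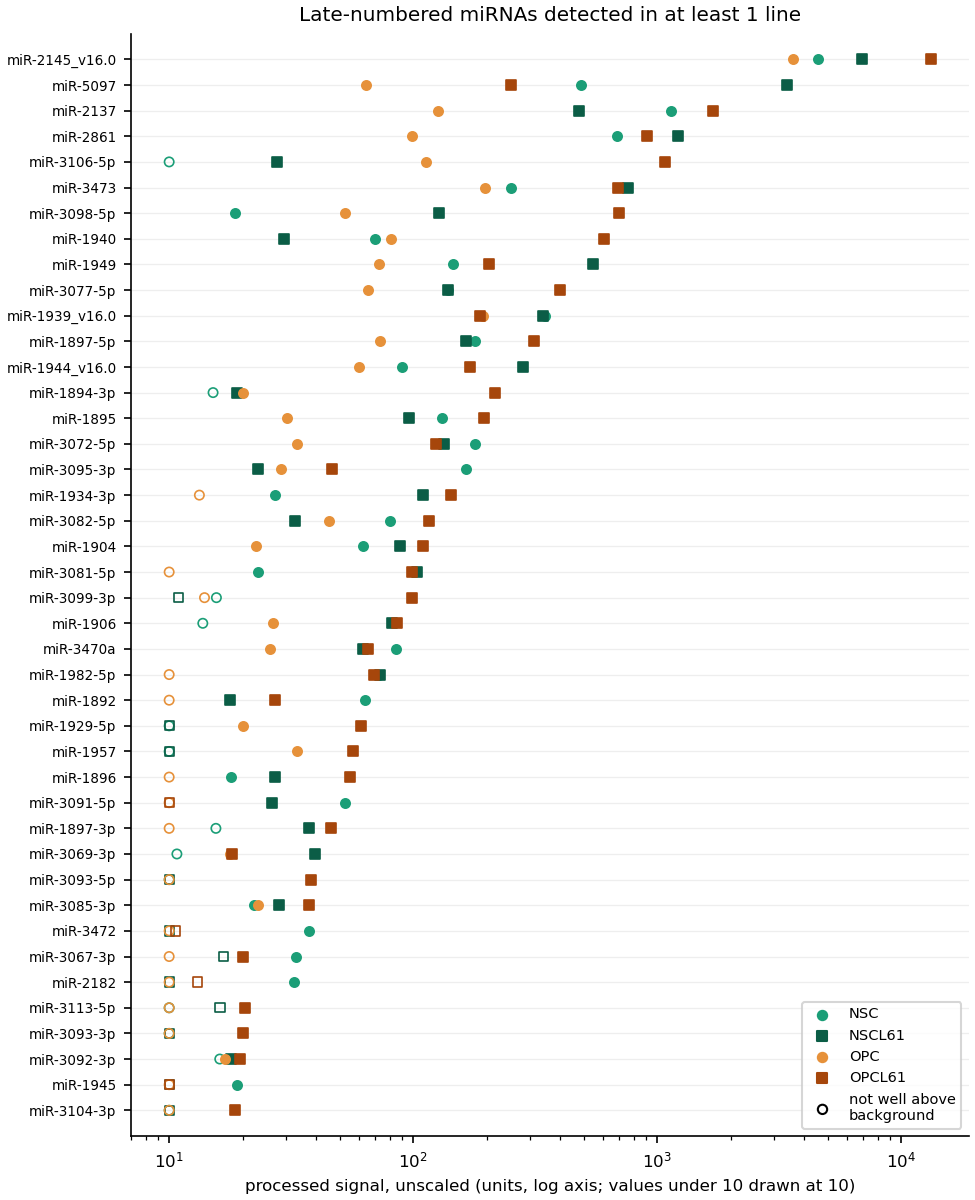
Unscaled processed signal (x axis, units, log scale) in NSC, NSCL61, OPC and OPCL61 for the 42 late-numbered miRNAs detected in at least 1 line, ordered by their highest signal. Filled symbols are well above background and open ones are not. OPCL61 holds the highest signal of many members, with miR-2145_v16.0 at 13196 units.

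Signals were compared between lines on a log2 scale after each array had been shifted to a common 75th percentile of 182 probes detected on all 4 arrays. The shift decides many calls. It moves every unscaled log2 difference down by 1.95 for NSCL61 against NSC and by 1.68 for OPCL61 against OPC, and up by 0.78 for OPC against NSC and by 1.06 for OPCL61 against NSCL61. A member was called higher or lower at 2-fold or more where this also exceeded 2 times the spot standard error. Where only 1 line was well above background the difference is a bound, the bright line against the lowest detected level of the dim array, written as "at least". A call is named as kept under the scalings where it also held without scaling, with the percentile over all mouse probes and with quantile normalization. The first 2 of these move every difference of a comparison by 1 constant, so each can undo calls in 1 direction only.

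miR-3106-5p differed most between lines. Its signal was -0.427 ± 2.24 units in NSC (n = 18), 27.6 ± 1.63 in NSCL61 (n = 18), 112 ± 5.76 in OPC (n = 18) and 1080 ± 20.8 in OPCL61 (n = 15). It was not well above background in NSC, close to background in NSCL61 and clear in both lines of the OPC lineage. Scaled, it was 81.9-fold higher in OPCL61 than in NSCL61 (log2 difference 6.36), 3.01-fold higher in OPCL61 than in OPC, and at least 10.8-fold higher in OPC than in NSC. Without scaling these were 39.3-fold, 9.62-fold and at least 6.27-fold, so all 3 calls kept their direction. Its probes of 17 and 18 bases gave nearly the same values, 1080 and 1065 units in OPCL61, and its probe GC of 41.2% was under the median of the members.

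miR-3098-5p had 18.5 ± 3.35 units in NSC (n = 18), 128 ± 5.19 in NSCL61 (n = 20), 52.8 ± 3.49 in OPC (n = 17) and 695 ± 31.4 in OPCL61 (n = 18). The order was NSC, OPC, NSCL61 and OPCL61 without scaling, and with scaling NSC, NSCL61, OPC and OPCL61. The scaled level in OPCL61 was 4.11-fold that in OPC and 11.4-fold that in NSCL61, and OPC was 4.77-fold above NSC. All 3 calls were kept under the scalings, while NSCL61 against NSC, with a scaled log2 difference of 0.79, was not called. The longer probe was 1.97 times as bright as the shorter in OPCL61 but 1.04 times in NSCL61.

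miR-1940 had 69.8 ± 4.94 units in NSC (n = 20), 29.5 ± 5.10 in NSCL61 (n = 18), 81.1 ± 4.55 in OPC (n = 19) and 603 ± 16.4 in OPCL61 (n = 20). Without scaling the precursors were close to each other, OPCL61 was far above them and NSCL61 was the low line. Scaled, it was 9.29-fold lower in NSCL61 than in NSC, 2.33-fold higher in OPCL61 than in OPC and 43.3-fold higher in OPCL61 than in NSCL61, all kept under the scalings. OPC against NSC was called at the limit of 2-fold and not kept. The shorter probe gave 121 ± 6.64 units in OPCL61 (n = 17) and 32.9 ± 3.96 in OPC (n = 19). Its scaled log2 difference between these lines was 0.21, against 1.22 with the longer probe, so the call of OPCL61 against OPC rested on the longer probe.

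miR-2137 had 1137 ± 20.4 units in NSC (n = 19), 479 ± 17.8 in NSCL61 (n = 20), 126 ± 7.44 in OPC (n = 20) and 1700 ± 43.5 in OPCL61 (n = 17). Its unscaled signal was high in NSC and OPCL61 and lowest in OPC, while its scaled level was lowest in NSCL61. The scaled level was 9.21-fold lower in NSCL61 than in NSC, 4.21-fold higher in OPCL61 than in OPC, 5.23-fold lower in OPC than in NSC and 7.41-fold higher in OPCL61 than in NSCL61. It was called in all 4 comparisons, and each call was kept under the scalings. The comparisons share arrays, so these calls are not independent of each other. The probe, with GC of 76.9%, was 4.43 to 5.56 times as bright as the one 1 base shorter, and the shorter probe gave the same directions.

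**Figure D3:**
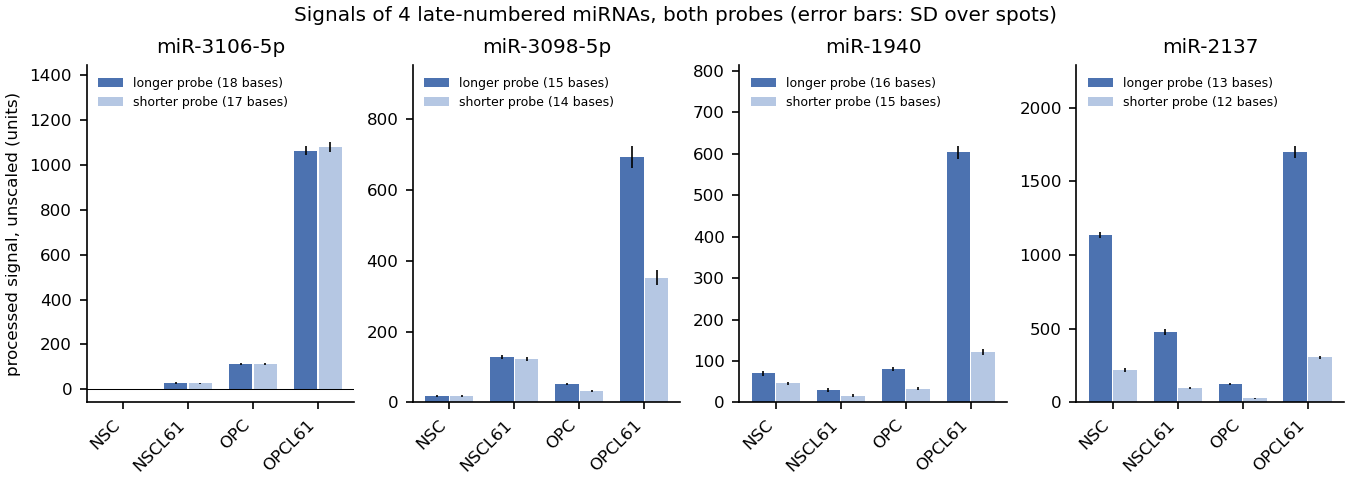
Unscaled processed signal (y axis, units) in the 4 lines (x axis) for both probes of miR-3106-5p, miR-3098-5p, miR-1940 and miR-2137. Bars are means over spots of 1 array and error bars are SDs over spots. OPCL61 is the highest line for each miRNA, with 1080 units for miR-3106-5p and 1700 for miR-2137.

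NSCL61 was then set against NSC, the first lineage. Of 35 members well above background in at least 1 of these lines, 0 were called higher and 22 lower, where 11.8% of all miRNAs tested were called higher and 38.8% lower. Without scaling 10 were called higher and 6 lower, so the split was set largely by the scaling. The unscaled median over all 153 miRNAs measured in both lines was 0.93, and the share of all miRNAs called without scaling was not counted. The 6 lower calls kept under the scalings were miR-3095-3p, miR-1892, miR-3082-5p, miR-1940, miR-2137 and miR-3472. miR-3095-3p had 165 ± 7.53 units in NSC (n = 18), 23.2 ± 3.82 in NSCL61 (n = 19), 28.7 ± 3.25 in OPC (n = 19) and 46.6 ± 6.67 in OPCL61 (n = 18). NSC stood above the other lines, and the scaled level was 27.7-fold lower in NSCL61, or 7.14-fold without scaling. miR-1892 had 63.2 ± 2.52 units in NSC (n = 16) and 17.8 ± 3.57 in NSCL61 (n = 19), 12.9-fold lower when scaled. miR-3082-5p had 80.5 ± 4.34 units in NSC (n = 19) and 32.9 ± 3.54 in NSCL61 (n = 20), 9.54-fold lower when scaled.

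miR-3472 was seen only in NSC, with 37.5 ± 3.59 units (n = 19), and was at least 8.05-fold lower in NSCL61. miR-2182 with 32.4 ± 3.31 units (n = 19) and miR-1945 with 18.9 ± 2.95 units (n = 16) were also detected only in NSC, the latter near the limit of detection. The median scaled log2 difference of the 25 members measured in both lines was -1.95, against -0.83 for 121 lower-numbered miRNAs, while without scaling the medians were 0.01 and 1.13. Late-numbered miRNAs thus sat below lower-numbered ones, by 0.59 to 1.15 over all settings tried. Leaving out the scaling and the percentile over all mouse probes move every difference alike, so they could not change this gap. With probe GC of 60% and over the medians were -1.95 for 19 members and -1.72 for 36 lower-numbered miRNAs, and under 60% they were -1.79 for 6 and -0.53 for 85. The gap was smaller among GC-rich probes, and few members remained below that limit.

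In the second lineage, OPCL61 against OPC, 38 members could be compared. Of these 8 were called higher and 3 lower, where 14.5% and 20.6% of all miRNAs tested were called. Without scaling 27 were called higher and 0 lower. Most miRNAs rose on unscaled values, with a median of 1.35 over all 131 measured in both lines and 113 above 0. The share of all miRNAs called without scaling was not counted, so the 27 are not a result about the members. The 7 higher calls kept under the scalings were miR-2137, miR-3098-5p, miR-1894-3p, miR-3106-5p, miR-2861, miR-1934-3p and miR-1940. Leaving out the scaling and the percentile over all mouse probes both raise every difference here, so only quantile normalization could undo a higher call. miR-1894-3p had 15.1 ± 3.03 units in NSC (n = 18), 18.9 ± 2.54 in NSCL61 (n = 19), 20.1 ± 3.94 in OPC (n = 20) and 217 ± 20.1 in OPCL61 (n = 16). NSCL61 and OPC were near the limit of detection and OPCL61 was far above it, 3.34-fold above OPC when scaled, and 3.42 higher on the log2 scale without. With the shorter probe the scaled log2 difference of miR-1894-3p was 0.97, under the limit of a call, against 1.74 with the longer. miR-1934-3p had 13.3 ± 2.61 units in OPC (n = 18), not well above background, and 143 ± 9.24 in OPCL61 (n = 20), at least 2.62-fold higher. With the mean of its probes in place of the brightest, the miR-1934-3p difference was -0.06 and no longer a call.

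The 3 lower calls, miR-1939_v16.0, miR-3069-3p and miR-3092-3p, had unscaled log2 differences of -0.04, 0.12 and 0.23, and none was kept without scaling. The median scaled difference of the 26 members measured in both lines was 0.17, against -0.49 for 99 lower-numbered miRNAs, with 1.85 and 1.19 unscaled. Members sat above lower-numbered miRNAs by 0.32 to 0.66 over all settings, although the sign of the members' own median turned with normexp background correction (-0.30). Settings that shift all differences alike could not change this gap. Within probe GC of 60% and over the medians were 0.36 and 0.23, and under 60% they were -0.18 and -0.55.

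**Figure D4:**
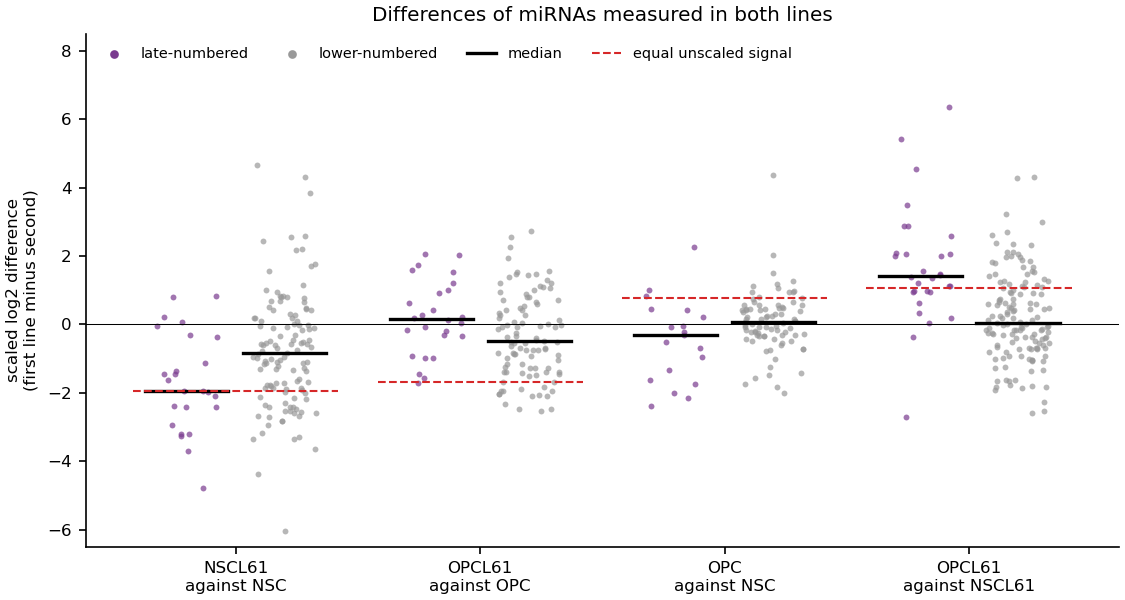
Scaled log2 differences (y axis) of late-numbered and lower-numbered miRNAs measured in both lines of each comparison (x axis). Points are miRNAs, black lines are medians and dashed lines mark equal unscaled signal. The late-numbered median is -1.95 for NSCL61 against NSC and 1.42 for OPCL61 against NSCL61.

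The lineages differed in direction for several members. Of 19 members measured in both lines of both lineages, 10 were lower in NSCL61 than NSC and higher in OPCL61 than OPC on the scaled values, 7 were lower in both glioma-initiating lines and 2 were higher in both. On unscaled signals the same counts were 9, 1 and 9, so the split depended on the scaling. By the call rule 4 members were lower in the first and higher in the second, namely miR-2137, miR-1940, miR-1895 and miR-2861. For 3 of them the signal without scaling also pointed opposite ways, with log2 differences of -1.25 and 3.75 for miR-2137, of -1.26 and 2.90 for miR-1940 and of -0.45 and 2.69 for miR-1895. For miR-2861 the unscaled signal was 1.79-fold higher in NSCL61 than in NSC, so the opposite direction there came with the scaling. Some lower-numbered miRNAs showed the same opposition on scaled values, such as miR-714 (-3.64 and 1.08) and miR-188-5p (-2.19 and 1.49). Others, such as miR-21-5p (3.84 and 2.73), moved the same way in both lineages. The opposition was thus not particular to late-numbered miRNAs, and its share over all miRNAs was not counted. miR-1895 had 131 ± 9.01 units in NSC (n = 20), 96.3 ± 4.58 in NSCL61 (n = 19), 30.5 ± 3.95 in OPC (n = 19) and 194 ± 8.04 in OPCL61 (n = 18). Its unscaled signal was lowest in OPC and highest in OPCL61, while its scaled level was lowest in NSCL61 and highest in NSC.

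**Figure D5:**
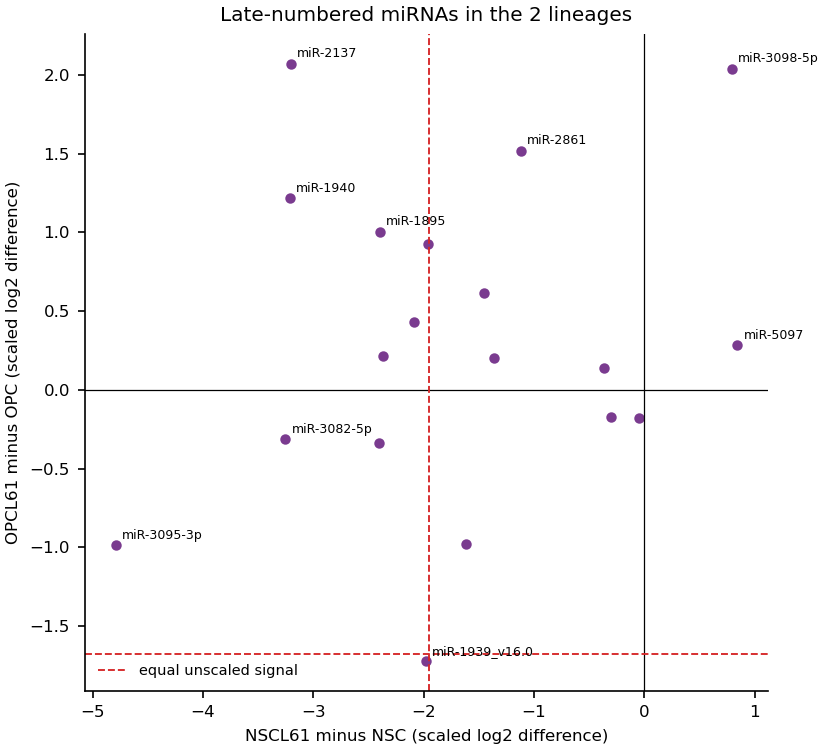
Scaled log2 difference of NSCL61 minus NSC (x axis) against OPCL61 minus OPC (y axis) for the 19 late-numbered miRNAs measured in all these lines. Dashed lines mark equal unscaled signal. miR-2137 lies at -3.20 and 2.07, and miR-1940 at -3.22 and 1.22.

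A limma fit over all 4 arrays, with lineage as a term, asked which miRNAs differed between glioma-initiating and precursor cells in the same way in both lineages. Of 206 miRNAs fitted 1 was called at an adjusted p under 0.05 (0.485%), and of the 34 members fitted 0 were called. At an unadjusted p under 0.05 there were 5 members. The smallest adjusted p among members was 0.115 in limma, for miR-3092-3p and miR-1939_v16.0, with log2 differences of -1.70 and -1.85. Signals of miR-3092-3p ran from 16.1 to 19.6 units over the arrays, near the limit of detection. For miR-1939_v16.0 the unscaled log2 differences were -0.02 for NSCL61 against NSC and -0.04 for OPCL61 against OPC. The scaling lowers these comparisons by 1.95 and 1.68, so the log2 differences of both miRNAs came largely with the scaling. The spread in this fit is that between 2 lineages, and the number of members called ran from 0 to 11 over the settings tried.

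The precursors were compared next, OPC against NSC. NSC also served as the control of NSCL61, so these comparisons share an array. Of 36 members 5 were called higher in OPC and 8 lower, where 14.0% and 11.5% of all miRNAs tested were called. miR-3106-5p and miR-3098-5p were the higher calls kept under the scalings. All 8 lower calls were kept. They were miR-2137, miR-5097 at 4.42-fold, miR-2861 at 4.01-fold, miR-3095-3p at 3.35-fold, miR-3072-5p with a log2 difference of -1.63, miR-1895 at 2.52-fold, miR-1982-5p at a bound of at least 2.47-fold and miR-1892 at a bound of at least 2.15-fold. Leaving out the scaling and the percentile over all mouse probes both lower every difference of this comparison. Only quantile normalization could thus undo a lower call, and the keeping of all 8 says little. Once the other settings counted too, miR-1892, miR-1982-5p and miR-3095-3p did not keep the call under each. The median scaled difference was -0.31 over 19 members and 0.08 over 84 lower-numbered miRNAs.

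OPCL61 against NSCL61 gave the most calls. Of 39 members 28 were called higher in OPCL61 and 1 lower, where 34.8% and 12.1% of all miRNAs tested were called. Of the 28, 10 were kept under the scalings, namely miR-3106-5p, miR-1940, miR-1894-3p, miR-3098-5p, miR-3099-3p, miR-2137, miR-3082-5p, miR-3077-5p, miR-1929-5p and miR-1957. miR-3099-3p was detected in OPCL61 alone, with 98.5 ± 9.66 units (n = 20) against 10.9 ± 2.61 in NSCL61 (n = 20), at least 11.4-fold higher. miR-3077-5p had 139 ± 6.41 units in NSC (n = 20), 139 ± 6.82 in NSCL61 (n = 20), 65.6 ± 8.01 in OPC (n = 20) and 398 ± 41.2 in OPCL61 (n = 20). It was highest in OPCL61, 5.95-fold above NSCL61 when scaled and 2.85-fold without. miR-1929-5p, whose sequence lies in the autophagy gene Atg5, and miR-1957 were detected in OPC and OPCL61 and in neither line of the NSC lineage.

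The single lower call was miR-5097, 6.49-fold lower in OPCL61 when scaled and 13.5-fold without. miR-3093-5p (38.1 ± 5.83 units, n = 20) and miR-3113-5p (20.4 ± 3.85 units, n = 20) were detected in OPCL61 only. The median scaled difference was 1.42 over 30 members and 0.05 over 141 lower-numbered miRNAs, and 0.36 and -1.01 without scaling. Members stood above lower-numbered miRNAs by 0.60 to 1.52 over all settings, a gap that settings shifting all differences alike could not change. With probe GC of 60% and over the scaled medians were 1.42 and 0.94, and the unscaled medians were 0.36 and -0.12. Under 60%, with 8 members and 98 lower-numbered miRNAs, the unscaled medians were 0.44 and -1.31. The scaling moves both medians of a class alike. The gap between members and lower-numbered miRNAs was thus wider under 60% GC, where few members remained. These shifts are descriptions of single arrays and were not tested.

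Further detected members followed other patterns. miR-1949 had 146 ± 7.09 units in NSC (n = 19), 547 ± 24.0 in NSCL61 (n = 20), 72.6 ± 4.98 in OPC (n = 20) and 205 ± 12.0 in OPCL61 (n = 17). miR-1944_v16.0 had 89.7 ± 6.25 units in NSC (n = 18), 281 ± 9.08 in NSCL61 (n = 18), 60.2 ± 5.30 in OPC (n = 20) and 171 ± 16.3 in OPCL61 (n = 18). Both unscaled signals followed the order of the arrays' summed signal, highest in NSCL61 and lowest in OPC, and neither was called in any comparison. miR-3072-5p had 178 ± 5.43 units in NSC (n = 19), 134 ± 4.64 in NSCL61 (n = 17), 33.4 ± 1.52 in OPC (n = 17) and 124 ± 6.09 in OPCL61 (n = 19). Its unscaled signal was lowest in OPC, and its scaled level was lowest in NSCL61.

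Some members were not detected in 1 line or 1 lineage. miR-1982-5p, whose sequence lies in Oaz1, the gene of an ornithine decarboxylase inhibitor, had 68.8 to 73.2 units in NSC, NSCL61 and OPCL61 and 7.12 ± 2.97 in OPC (n = 19), not well above background. miR-3081-5p, in the Hedgehog co-receptor gene Boc, was likewise not well above background in OPC, with 103 ± 6.42 units in NSCL61 (n = 20) and 98.5 ± 4.46 in OPCL61 (n = 17) against 23.0 ± 2.54 in NSC (n = 16). Its scaled levels in NSC (5.03) and NSCL61 (5.25) lay under the floor of the dim OPC array (5.33). Its absence in OPC thus shows no lower level than in the NSC lineage. NSCL61 against NSC, with a scaled log2 difference of 0.22, was not called. NSC was the only line where miR-1906, with 1 of its 2 copies in Meg3, was not detected. It had 82.2 ± 6.77 units in NSCL61 (n = 19), 26.7 ± 5.06 in OPC (n = 20) and 85.9 ± 7.76 in OPCL61 (n = 20). This signal cannot be assigned to either copy. The longer miR-1906 probe was 2.34 times as bright as the shorter in NSCL61 but 0.84 times in OPC. miR-3091-5p, in the ribosomal protein gene Rps21, was detected in the NSC lineage only, with 52.5 ± 4.77 units in NSC (n = 19) and 26.5 ± 2.69 in NSCL61 (n = 19). Neither OPC against NSC nor OPCL61 against NSCL61 was called for it. The lowest spot signal well above background was 16.3 to 18.2 units per array.

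Each of the 42 detected members had 2 probes that differed by 1 base, and in 34 both were well above background on at least 1 array. The longer probe was brighter on each such array in 23 and the shorter in 7. The ratio of longer to shorter ran from 0.455 for miR-1904 in OPCL61 to 14.6 for miR-3077-5p in OPCL61. miR-3473 had a ratio of 8.40 to 9.74 in the 4 lines, and miR-1944_v16.0 one of 11.2 in NSCL61, the line where both of its probes were detected. For these 3 members the level was set by the brighter probe.

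Marker miRNAs were read as a check on the lines. miR-9-5p and miR-9-3p, abundant in neural progenitors, were detected in NSC, NSCL61 and OPC and not in OPCL61, and miR-338-3p of the oligodendrocyte lineage followed the same pattern. miR-219-5p of the oligodendrocyte lineage was detected in NSC (68.4 units) and not in OPC (13.4 units). Markers of blood cells, muscle, liver and fibroblasts were not well above background in any line, and the highest of them was miR-223-3p of blood cells at 11.7 to 14.7 units. Epithelial miR-205-5p at 299 units and endothelial miR-126-3p at 25.9 units were detected in NSCL61 only, and neuronal miR-124-3p at 32.5 units in NSC only. The other epithelial marker, miR-200c-3p, was not well above background in any line, with -2.62 to -1.22 units. The part of the cells that these markers stand for in the differences above was not tested.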

How the data were processed

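Total RNA (100 ng per array, per the labels) was hybridised with Cy3 to Agilent mouse miRNA arrays. The submitters' processing notes name Agilent Feature Extraction 10.7.3.1. The deposited processed signal intensity was background-subtracted and spatially detrended per the file headers, with no normalization between arrays. The 4 arrays shared 1 slide and 1 scan. The deposited value table held the same intensity values (largest difference 0).

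Outlier spots were left out (403 to 446 of 8240 member spots per array), and no member spot was saturated. Values under the array's lowest signal well above background (16.3 to 18.2 units) were set to it before log2. Negative control spots had medians of 2.53 to 3.29 units. Each array was shifted to a common 75th percentile over 182 of 2645 probes. A miRNA's level was that of its brightest probe. The 4 comparisons and bounds follow the rules in the results. The fit used limma 3.58.1 in R 4.3.3 (trended prior, Benjamini-Hochberg adjustment over every miRNA detected on 2 or more arrays). Call rule and fit were run on simulated data as a check of the code only. The changes put into the fit's simulation were far larger than the members' differences. The call rule's simulation held spot noise and no differences between arrays. Neither run measures how well real differences are found here. Having 1 array per line limits the precision, beside the scaling and the choice of probe.

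Members, lists and the naming rule were chosen with earlier results of these data known. Named were the 4 miRNAs of the request, the 10 brightest, the largest called differences and bounds per comparison, members detected in 1 line, other arms, and members whose probes differed most. miR-1895, miR-1904, miR-1906, miR-3072-5p, miR-3081-5p and miR-3085-3p were named after their values were seen, as were the gene hosts printed. Mature sequences and gene positions are RefSeq's (GRCm38.p6), and probe sequences and their positions are the files' (mm9).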

Additional observations from a re-analysis of the deposited data

Results flagged for a closer look

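Members called in opposite directions in the 2 lineages (NSCL61 against NSC, then OPCL61 against OPC) were taken for a closer look. The gap between both scaled log2 differences was 5.28 for miR-2137 (-3.20 and 2.07), 4.43 for miR-1940 (-3.22 and 1.22), 3.41 for miR-1895 (-2.40 and 1.01) and 2.64 for miR-2861 (-1.12 and 1.52). Each line had 1 array, so these differences between lineages were not tested. A scaling by 1 constant per array moves each of these gaps by the same amount. Opposite directions were also seen in lower-numbered miRNAs such as miR-714 and miR-188-5p, and their share over all miRNAs was not counted.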

How the results depend on the processing

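Detection counts stayed within 1.5 times under the 3 alternatives tried, namely the software's total signal (30 to 46 members per line), a limit of 80% of spots (24 to 32) and outlier spots kept (26 to 38). Called counts moved with the scaling. Shares over all miRNAs were not counted under the other settings, so the counts below describe the settings rather than the members. For NSCL61 against NSC, 0 members higher became 10 without scaling, 10 with the percentile over all mouse probes, 2 with quantile normalization and 4 with the total signal, and 22 lower became 6 without scaling and 7 with all probes. Its median of -1.95 became 0.0076 without scaling, -0.021 with all probes, -1.25 with quantiles, -1.63 with normexp and -1.29 with the total signal. For OPCL61 against OPC, 8 higher became 27 without scaling, 26 with all probes, 4 with normexp and 19 with the total signal, and 3 lower became 0 without scaling, 0 with all probes, 5 with normexp and 5 with the total signal. Its median of 0.17 became 1.85, 1.69, 0.030 with quantiles, -0.30 with normexp and 0.28 with the total signal. For OPC against NSC, 5 higher became 2 without scaling, with all probes and with normexp, and 8 lower became 15 without scaling, 14 with all probes, 3 with normexp and 17 with the total signal. Its median of -0.31 became -1.10, -1.03, -0.090 with normexp, -0.15 with the mean of probes and -0.048 with the total signal. For OPCL61 against NSCL61, 28 higher became 14 without scaling, 10 with all probes and 13 with quantiles, and 1 lower became 3 without scaling, 3 with all probes and 2 with the total signal. Its median of 1.42 became 0.36, 0.29, 0.53 with quantiles, 1.01 with normexp, 1.31 with the mean of probes and 0.86 with the total signal. Moves without scaling follow from its construction, since each comparison loses a constant shift. For the other settings the cause was not tested.

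limma's calls over both lineages, 1 miRNA and 0 members, became 23 and 2 without scaling, 14 miRNAs with all probes, 5 with quantiles, 77 and 11 with normexp and 35 and 4 with the mean of probes, and 0 miRNAs when only those detected on all 4 arrays were fitted (105 fitted, 19 at an unadjusted p under 0.05). The planned fit with no detection filter could not be fitted. Named differences turned sign for miR-1982-5p (0.0076), miR-2145_v16.0 (0.60) and miR-2861 (0.84) in NSCL61 against NSC without scaling, and for miR-2145_v16.0 (0.57) and miR-2861 (0.81) with all probes. In OPCL61 against OPC they turned for miR-3069-3p (0.12) and miR-3092-3p (0.23) without scaling, for miR-3092-3p (0.071) with all probes and for miR-1934-3p (-0.064) with the mean of probes. Of 57 called differences of named members, 57 kept their call with outlier spots, 53 with the mean of probes, 50 with the total signal, 46 with quantiles, 44 with normexp, 34 without scaling and 33 with all probes, and 51 of the 52 that had a value with the 80% limit did. No pairing by replicate number was possible, because each line had 1 array. The limma fit with lineage as a term, already given, is the paired comparison, with each glioma-initiating line set against its precursor. Signals within a few units of 20 lie at the limit of detection, and their presence or absence in a line rests on that limit.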
